A study of Mus musculus with 8 samples.

Results

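The RNA levels of 9 genes of the JAK–STAT pathway were described in cultured mouse macrophages (Mϕ) that had or had not engulfed apoptotic cells, and had or had not been stimulated with LPS/IFNγ. The genes were taken by name from the gene table and not by a rule on their values, but earlier results of these data were known. They were the Janus kinase genes *Jak1*, *Jak2* and *Tyk2* and the transcription factor genes *Stat2*, *Stat3*, *Stat4*, *Stat5a*, *Stat5b* and *Stat6*. They made up 9 of the 55359 genes in the table and 9 of the 16309 genes that averaged 10 normalized counts or more and were tested. Other genes of the 2 families were not analysed here. All samples were bone marrow-derived macrophages (BMDMs) of wildtype C57BL/6 mice, from adult males and females, grown with M-CSF and GM-CSF at 20 ng/mL each. The naïve, unstimulated group (Ctrl) had no addition, and the LPS group received 100 ng/mL LPS with 100 U/mL murine IFNγ for 6 h. The efferocytic group (Eff) was cultured for 16 h with apoptotic NIH-3T3 CA fibroblasts, at 5 apoptotic cells per Mϕ. The LPSEff group received the fibroblasts and then LPS/IFNγ. The NIH-3T3 CA cells are 1 clone of a mouse fibroblast line that carries a caspase-8 made active by 10 nM of a dimerizing drug. The drug stayed in the co-culture, so the Mϕ of Eff and LPSEff were exposed to it too. No drug is stated for Ctrl or LPS, so effects of the drug and of efferocytosis cannot be told apart. All groups were collected on CD45 beads, and each group had 2 samples. No label states that the samples of a group came from separate mice or cultures, so the p-values measure only the spread between these samples, which may be technical.

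Janus kinases are tyrosine kinases that are bound to the inner side of cytokine receptors. When a cytokine brings its receptor chains together, the kinases phosphorylate each other, the receptor and then STAT proteins, which pair, enter the nucleus and bind DNA. The receptor for IFNγ uses JAK1 and JAK2, while the receptor for type I interferons uses JAK1 and TYK2. STAT2 acts downstream of type I interferons together with IRF9. STAT3 acts downstream of the IL-6 and IL-10 receptors, STAT4 of the IL-12 receptor, STAT5A and STAT5B of the GM-CSF receptor and STAT6 of the IL-4 receptor. In Mϕ these branches are known for antiviral, inflammatory and wound-associated gene programs. The values here are RNA levels, and phosphorylation was not measured.

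STAT dimers bind a palindrome called GAS, here searched as TTC, any 3 bases and GAA, and the STAT2-containing complex ISGF3 binds a repeat called ISRE, here searched as GAAA, any 2 bases and GAAA. The ISRE reads TTTC, any 2 bases and TTTC on the other strand. Both were searched on both strands from 500 bases before to 100 bases after the start of each canonical transcript (GENCODE, GRCm39). The GAS letters occurred in 17.5% of 21757 protein-coding promoters and the ISRE letters in 7.85% of those promoters. Matches at 4 of the promoters are shown to give these letters in place, in capitals, 5′ to 3′ on the strand of the gene and with 10 bases on each side. They are not all of the matches, so nothing is read from which genes hold one.
Stat2, ISRE: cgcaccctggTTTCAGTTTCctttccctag
Stat4, ISRE: aatgtcttcaGAAAGTGAAAtttagaacgg
Jak2, GAS: aagcggtcccTTCGCAGAAgtggtggtta
Tyk2, GAS: ccaaagactgTTCAAGGAAagcttggggg
The *Stat2* match lay 207 bases before the start, at chr10:128106135-128106164 on the plus strand. The *Stat4* match lay 100 bases before the start, at chr1:52047292-52047321 on the plus strand. The *Jak2* match lay 138 bases before the start, at chr19:29228529-29228557 on the plus strand. The *Tyk2* match lay 294 bases before the start, at chr9:21042965-21042993 on the minus strand. No GAS or ISRE letters were found in this window of *Stat3*, *Stat5a*, *Stat5b* or *Stat6*. These matches describe sequence and are not binding sites.

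The genes lie on 6 chromosomes. *Stat2* (ENSMUSG00000040033, chr10:128106352-128128735) and *Stat6* (ENSMUSG00000002147, chr10:127477821-127496862) share chromosome 10, and *Stat3* (ENSMUSG00000004040, chr11:100775924-100830450), *Stat5a* (ENSMUSG00000004043, chr11:100750177-100776065) and *Stat5b* (ENSMUSG00000020919, chr11:100671556-100741589) stand in a row on chromosome 11. *Stat4* (ENSMUSG00000062939) lies at chr1:52026307-52151423, *Jak1* (ENSMUSG00000028530) at chr4:101008838-101122487, *Jak2* (ENSMUSG00000024789) at chr19:29228677-29290505 and *Tyk2* (ENSMUSG00000032175) at chr9:21015363-21042689. Some reads could not be placed with certainty: of the 50-base words in their exons, *Stat5a* shared 6.96% and *Stat5b* 7.45% with each other, and *Stat4* shared 9.33% with an annotated gene that overlaps it on the same strand. *Stat3* and *Stat5a* overlap at their ends on opposite strands, by 6.89% and 7.41% of their exon length with any gene on the other strand, *Stat4* overlaps genes on the other strand over 30.0% of its exons, and *Jak1* overlaps *Raver2* over 18.0%.

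Each sample held between 3481288 and 12020918 reads in genes (median 8431112.5), and the shallowest was Ctrl 1. A count of 3 reads was worth 1.73 to 5.71 normalized counts, and the fewest reads behind any value of the 9 genes were 53, for *Stat4* in Ctrl 1. All 10 listed Mϕ markers were present, with summed levels of 106516 to 162874 normalized counts over the 8 samples, while the T and NK cell markers *Cd3e* and *Nkg7* and the B cell marker *Cd79a* were at or near 0. Of the same T and NK cell list, *Cd247* ran from 36.2 to 216 normalized counts. The summed level of 8 neutrophil markers was 723 to 1118 in Ctrl and 1143 to 1618 in Eff, and with LPS/IFNγ 1865 to 2213 in naïve and 1868 to 2647 in efferocytic Mϕ. That of 6 mast cell or basophil markers was 929 to 998 in Ctrl and 261 to 404 in LPS, most of it from *Kit*, and 690 to 824 in Eff and 165 to 338 in LPSEff. The summed level of 18 fibroblast markers was 366 to 657 normalized counts in Ctrl and 2732 to 5342 in Eff. After LPS/IFNγ it was 2883 to 2911 in naïve and 8860 to 9569 in efferocytic Mϕ. The fibroblasts are of the same species as the Mϕ, so their RNA cannot be told apart by sequence.

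LPS/IFNγ raised 7 of the 9 genes in naïve Mϕ, among 12.4% of all tested genes that were called higher and 24% called in either direction (limma, adjusted p under 0.05). The 7 were *Jak2*, *Tyk2*, *Stat2*, *Stat3*, *Stat4*, *Stat5a* and *Stat5b*, and the median log2 fold change of the 9 was 1.59, against −0.01 over all tested genes. In bulk RNA, a change in the number of cells of a type and a change in RNA per cell cannot be told apart. Some markers were higher in both LPS samples than in both Ctrl samples, as were 28.4% of all tested genes. They included 8 of 8 neutrophil, 5 of 8 dendritic cell and 4 of 10 T or NK cell markers. Also included were 10 of 18 fibroblast and 5 of 10 Mϕ markers, and 1 Mϕ marker was lower. Between LPSEff and Eff these counts were 4, 6, 3, 10 and 5, against 29.5% of all tested genes. There 2 T or NK cell markers were lower. Only 1 of the 10 T or NK cell markers averaged 10 normalized counts or more. No fibroblasts were added to Ctrl or LPS, and *Cav1* gave 1803 and 1699 normalized counts of the fibroblast sum in LPS. The part of these markers in the rises of the 7 genes was not tested. Among the kinases, *Jak2*, which serves the IFNγ and GM-CSF receptors, stood at 1472 and 2306 normalized counts in Ctrl and at 8208 and 12407 in LPS. The groups did not overlap, although the LPS samples themselves differed. The fold was 5.47 (log2 2.45, SE 0.32, adjusted p = 0.00132, limma). *Tyk2*, the kinase of the type I interferon and IL-12 receptors, measured 1078 and 1217 normalized counts in Ctrl and 2651 and 2995 in LPS. Both LPS samples lay well above both Ctrl samples (log2 1.30, SE 0.18, adjusted p = 0.00151).

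**Figure D1:**
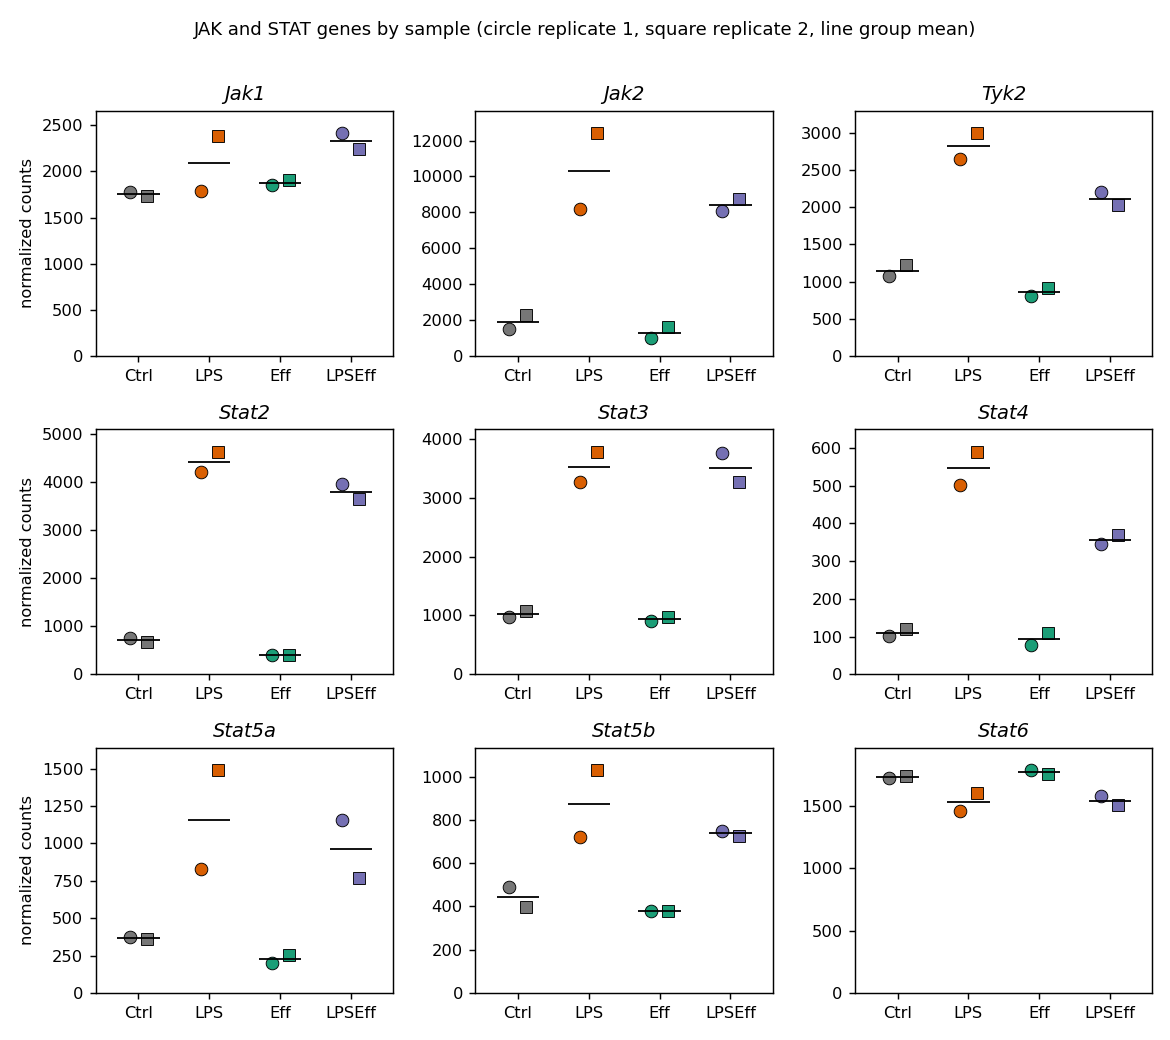
Normalized counts (linear axis from 0, its own range in each panel) of the 9 JAK and STAT genes in each sample of the 4 groups, with circles for replicate 1, squares for replicate 2 and lines for group means. The LPS and LPSEff points of Jak2 (8074 to 12407) and Stat2 (3647 to 4631) sit above all points of the unstimulated groups, while the points of Stat6 stay between 1462 and 1788.

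*Stat2* had the largest rise of the 9. Its values were 748 and 678 normalized counts in Ctrl and 4207 and 4631 in LPS, so the spread within a group was small beside the distance between groups. The rise on the log2 scale was 2.63 (SE 0.17, adjusted p = 5.39e-05), a fold of 6.19, which ranked 484th among the rises of the 16309 tested genes. *Stat4*, which transmits IL-12 signals, was scarce in Ctrl at 101 and 121 normalized counts and reached 502 and 590.0 in LPS. It rose 4.89-fold (log2 2.29, SE 0.23, adjusted p = 0.000397). *Stat4* is best known from T and NK cells, and the summed level of 10 markers of those cells was 49.5 to 110 normalized counts in Ctrl and 202 to 241 in LPS; only *Cd247* of that list passed the filter on low values. The part of those markers in the change of *Stat4* was not tested. *Stat3* measured 965 and 1074 normalized counts in Ctrl and 3261 and 3778 in LPS. It rose 3.44-fold (log2 1.78, SE 0.18, adjusted p = 0.000377), and the groups were far apart.

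The STAT5 genes rose with less certainty. *Stat5a* was level in Ctrl, at 373 and 361 normalized counts, but its LPS samples were 825 and 1489, and it rose by 1.59 on the log2 scale (SE 0.31, adjusted p = 0.00823). *Stat5b* stood at 489 and 397 normalized counts in Ctrl and 719 and 1030 in LPS, and rose 1.95-fold (log2 0.96, SE 0.22, adjusted p = 0.0146). In both genes the second LPS sample was the highest of all 8. Without the Ctrl 2 sample the adjusted p was 0.0501 for *Stat5a* and 0.0967 for *Stat5b*, and without the LPS 2 sample it was 0.0661 for *Stat5b*.

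The same 7 genes were called higher by LPS/IFNγ in efferocytic Mϕ, where 10.7% of all tested genes were called higher and 19.7% in either direction. This comparison of LPSEff with Eff shares no sample with that of LPS with Ctrl. The median log2 fold change of the 9 was 1.89, against 0.01 over all tested genes. *Stat2* measured 401 and 414 normalized counts in Eff and 3953 and 3647 in LPSEff. The 9.30-fold rise (log2 3.22, SE 0.17, adjusted p = 1.87e-05) ranked 284th among all tested genes. *Jak2* measured 983 and 1592 normalized counts in Eff and 8074 and 8738 in LPSEff. Its fold was 6.71 (log2 2.75, SE 0.32, adjusted p = 0.000877), and here the stimulated samples lay close together while the Eff samples did not. *Tyk2* went from 804 and 913 normalized counts in Eff to 2200 and 2026 in LPSEff (log2 1.30, SE 0.18, adjusted p = 0.00169).

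*Stat3*, the STAT of IL-10 and IL-6 signalling, had 908 and 972 normalized counts in Eff and 3752 and 3257 in LPSEff. It rose by 1.89 on the log2 scale (SE 0.18, adjusted p = 0.000272). *Stat4* had 78.0 and 109 normalized counts in Eff and 345 and 369 in LPSEff (log2 1.94, SE 0.23, adjusted p = 0.000938). No Eff sample of either gene reached an LPSEff sample. *Stat5a* went from 198 and 252 normalized counts in Eff to 1155 and 765 in LPSEff (log2 2.07, SE 0.31, adjusted p = 0.00304). *Stat5b* had the most even Eff samples of any of the 9 genes, at 379 and 378 normalized counts, and its LPSEff samples were 751 and 725 (log2 0.96, SE 0.22, adjusted p = 0.0169). Leaving out any 1 sample of Eff or LPSEff ended the call of *Stat5b*, with an adjusted p of 0.0667 to 0.0904.

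*Jak1* and *Stat6* were not called in either LPS/IFNγ comparison. *Jak1*, the kinase shared by most of these receptors, had 1777 and 1731 normalized counts in Ctrl and 1791 and 2389 in LPS. The efferocytic samples had 1852 and 1903 before and 2415 and 2243 after LPS/IFNγ. Its log2 difference was 0.24 (SE 0.19, adjusted p = 0.421) in naïve and 0.31 (SE 0.19, adjusted p = 0.309) in efferocytic Mϕ, and both turned negative when samples were scaled to equal totals (−0.16 and −0.14) or by quantiles (−0.29 and −0.23). The deposited scaling leaves the LPS/IFNγ samples with larger totals, and equal totals moved the median gene to −0.40 and −0.44. Of the called genes, 51.5% were higher in the naïve comparison and 54.6% in the efferocytic one, against 24.8% and 21.8% with equal totals. *Stat6*, which answers IL-4 and IL-13, had 1729 and 1745 normalized counts in Ctrl and 1462 and 1601 in LPS. Both LPS samples lay below both Ctrl samples, as they did for 30.9% of all tested genes (30.4% between LPSEff and Eff), with a log2 difference of −0.18 (SE 0.16, adjusted p = 0.468). In Eff it had 1788 and 1757 and in LPSEff 1579 and 1505, a difference of −0.20 (SE 0.16, adjusted p = 0.441). With equal totals the *Stat6* differences were −0.58 and −0.65 and were called lower (adjusted p = 0.0172 and 0.0117), against the median gene at −0.40 and −0.44. By quantiles they were −0.67 and −0.68 and were also called lower (limma, adjusted p = 0.0125 and 0.0130), against the median gene at −0.09 and −0.10. The other 8 genes lay higher without overlap between groups in both LPS/IFNγ comparisons, against 28.4% and 29.5% of all tested genes. Over the 8 samples the highest value of *Stat6* was 1.22 times its lowest and that of *Jak1* 1.39 times, while the ratio was 12.6 for *Jak2* and 11.5 for *Stat2*.

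Efferocytosis without stimulation changed none of the 9 genes by the limma test, in a comparison where 0.251% of all tested genes were called. By unadjusted p under 0.05, *Stat2* and *Tyk2* passed, against 6.13% of all tested genes. By adjusted p edgeR called none of the 9, and 14 of the 16309 tested genes. DESeq2 called *Stat2*, among 207 of all tested genes. *Stat2* had 748 and 678 normalized counts in Ctrl against 401 and 414 in Eff, and both Eff samples were far below both Ctrl samples. The log2 difference was −0.80 (SE 0.17, 95% interval −1.18 to −0.43, adjusted p = 0.163), the 710th lowest of all tested genes. When same-numbered samples were treated as pairs, the differences were −0.90 and −0.71 and *Stat2* was called lower (adjusted p = 0.0106), in a fit that called 2.67% of all tested genes. The value kept between −0.88 and −0.73 over 21 alternative analyses, with adjusted p from 0.000234 to 0.863.

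*Stat5a*, *Stat5b* and *Tyk2* also lay lower in both Eff samples than in both Ctrl samples, as did 17.8% of all tested genes. Their log2 differences were −0.71 (SE 0.31, adjusted p = 0.817), −0.22 and −0.42 (SE 0.18, adjusted p = 0.778). The *Stat5a* interval ran from −1.43 to 0.01 and that of *Tyk2* from −0.82 to −0.02. *Jak2* had a difference of −0.56 (SE 0.32, adjusted p = 0.979), and its samples overlapped between the groups, although replicate by replicate the differences were alike at −0.58 and −0.53. *Stat4* differed by −0.26 and *Stat3* by −0.12. *Stat6* (0.03) and *Jak1* (0.10) lay higher in both Eff samples, as did 16.3% of all tested genes, and neither was called. The median of the 9 differences was −0.26, against −0.01 over all tested genes, and 7 of the 9 were negative. The comparison shares its Ctrl samples with that of LPS and Ctrl, and its Eff samples with that of LPSEff and Eff. Of the 18 fibroblast markers, 15 were higher in both Eff samples than in both Ctrl samples, and 2 of 8 dendritic cell markers were lower. Their part in the values of the 9 genes was not tested.

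Among stimulated Mϕ, none of the 9 genes was called between LPSEff and LPS by limma, edgeR or DESeq2, and 0.773% of all tested genes were called by limma. Of all tested genes, edgeR called 126 and DESeq2 called 368. *Stat4* and *Tyk2* passed at an unadjusted p under 0.05, against 10.3% of all tested genes. *Stat4* was 502 and 590.0 normalized counts in LPS and 345 and 369 in LPSEff, so both efferocytic samples were lower. The log2 difference was −0.61 (SE 0.23, 95% interval −1.14 to −0.07, adjusted p = 0.410), with −0.54 and −0.67 for the replicates and an adjusted p of 0.0543 in the fit with pairs. With pairs, edgeR called *Stat4* lower (adjusted p = 0.0338), in a fit that called 1233 of the 16309 tested genes. Limma with pairs on equal totals also called *Stat4* lower (adjusted p = 0.0459), in a fit that called 1125 of them. *Tyk2* fell short of the threshold too, at −0.42 (SE 0.18, 95% interval −0.82 to −0.01, adjusted p = 0.464). Its difference between efferocytic and naïve Mϕ was the same to 2 decimals with and without LPS/IFNγ. *Stat2*, at −0.22 (adjusted p = 0.755), was the third gene whose groups did not overlap, and 17% of all tested genes were lower without overlap. *Stat5a* gave opposite signs in the replicates, 0.48 and −0.96, and its mean difference was −0.24. For *Stat3* (−0.01), *Stat6* (0.01), *Jak1* (0.17), *Stat5b* (−0.22) and *Jak2* (−0.26) the groups overlapped. Of the dendritic cell markers, 4 of 8 were lower in both LPSEff samples, and of the fibroblast markers 14 of 18 were higher. Their part in these values was not tested.

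**Figure D2:**
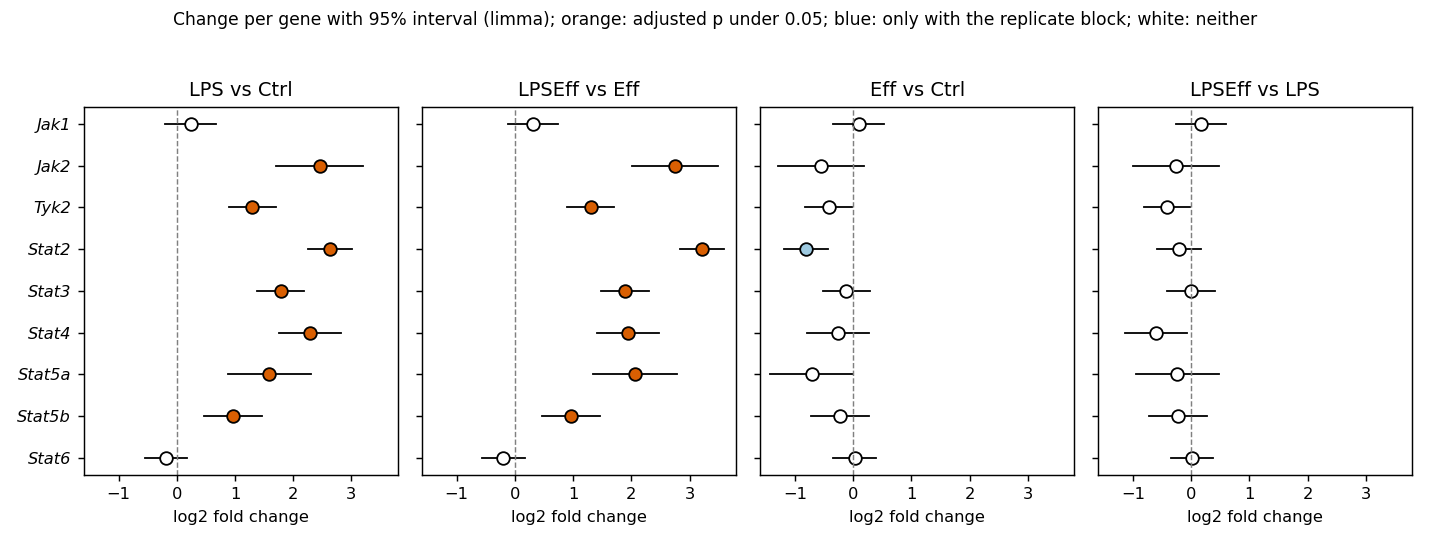
Log2 fold changes of the 9 genes with 95% intervals (limma) in the 4 comparisons, orange where the adjusted p was under 0.05, blue where it was so only with the replicate block (same-numbered samples treated as pairs) and white otherwise. In both LPS/IFNγ comparisons 7 genes are orange, from 0.96 for Stat5b to 3.22 for Stat2, while in the efferocytosis comparisons none is orange and Stat2 (−0.80, Eff vs Ctrl) is blue.

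The effect of LPS/IFNγ was then compared between efferocytic and naïve Mϕ. No gene of the 9 and none of the 16309 tested was called by limma, while 311 of all tested genes (1.91%) had an unadjusted p under 0.05. Without pairs, edgeR and DESeq2 also called none. With pairs, DESeq2 called 29 of all tested genes, none of them among the 9. *Stat2* had the largest difference of the 9, with a log2 effect of 3.22 in efferocytic and 2.63 in naïve Mϕ. The difference of 0.59 (SE 0.23, 95% interval 0.05 to 1.12) had an unadjusted p of 0.0355 and an adjusted p of 1.00, and the replicates gave 0.81 and 0.37. *Stat5a* differed by 0.48 (SE 0.44), but its replicates gave 1.40 and −0.44. *Stat4* had a difference of −0.35, *Jak2* of 0.29, *Stat3* of 0.11 and *Jak1* of 0.07. *Stat5b*, *Stat6* and *Tyk2* were within 0.02 of 0.

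Levels were next compared between genes, as normalized counts per kilobase of exon. In Ctrl *Stat6* led the STAT genes at 259.8 ± 1.67 (SD, n = 2), followed by *Stat2* at 113 ± 7.85, *Stat3* at 101 ± 7.64, *Stat5b* at 64.0 ± 9.47, *Stat5a* at 44.5 ± 1.06 and *Stat4* at 12.4 ± 1.57. The sample values of neighbours in this order did not overlap, but *Stat2* and *Stat3*, and *Stat5b* and *Stat5a*, changed places when the canonical transcript gave the length. In Eff the order was *Stat6* at 265 ± 3.30, *Stat3* at 93.1 ± 4.48, *Stat2* at 64.6 ± 1.37, *Stat5b* at 54.7 ± 0.119, *Stat5a* at 27.3 ± 4.62 and *Stat4* at 10.4 ± 2.42. Under LPS/IFNγ *Stat2* led, at 701 ± 47.5 in LPS and 603 ± 34.3 in LPSEff. *Stat3* came next at 349 ± 36.2 and 347 ± 34.7, and *Stat6* followed at 229 ± 14.8 and 231 ± 7.77. By the length of the canonical transcript *Stat2* and *Stat3* kept this order but lay closer, at 981 and 771 in LPS and 844 and 767 in LPSEff. *Stat5a* (140.2 ± 56.8 and 116 ± 33.4) and *Stat5b* (126 ± 31.7 and 107 ± 2.64) overlapped in both groups and were not ordered. By canonical length *Stat5a* was the higher, with means of 292 (LPS) and 243 (LPSEff) against 172 and 145 for *Stat5b*. *Stat4* stayed the lowest, at 60.9 ± 6.96 in LPS and 39.9 ± 1.90 in LPSEff.

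The make-up of the STAT transcripts shifted accordingly. *Stat6* held 43.1% and 44.3% of the summed per-kilobase level of the 6 STAT genes without any addition and 52.6% and 50.4% after efferocytosis alone. Its shares were 14.9% and 13.7% in LPS and 15.5% and 16.5% in LPSEff. *Stat2* held 19.8% and 18.2% in Ctrl, and 12.5% and 12.6% in Eff. With LPS/IFNγ it held 45.4% and 42.1% in naïve and 41.2% and 42.4% in efferocytic Mϕ. By canonical length the stimulated shares of *Stat2* were 38.3% and 35.2% in LPS and 33.9% and 35.3% in LPSEff. Those of *Stat3* were then 29.3% and 28.3% in LPS and 31.7% and 31.1% in LPSEff. Shares sum to a whole, so a share can move while its own gene does not, as the steadier counts of *Stat6* show. The ratio of *Stat2* to *Stat6* normalized counts was 0.433 and 0.389 in Ctrl and 0.224 and 0.235 in Eff, while stimulated samples gave 2.88 and 2.89 (LPS) and 2.50 and 2.42 (LPSEff). The ratio kept its replicates close in every group, and the 4 groups did not overlap.

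**Figure D3:**
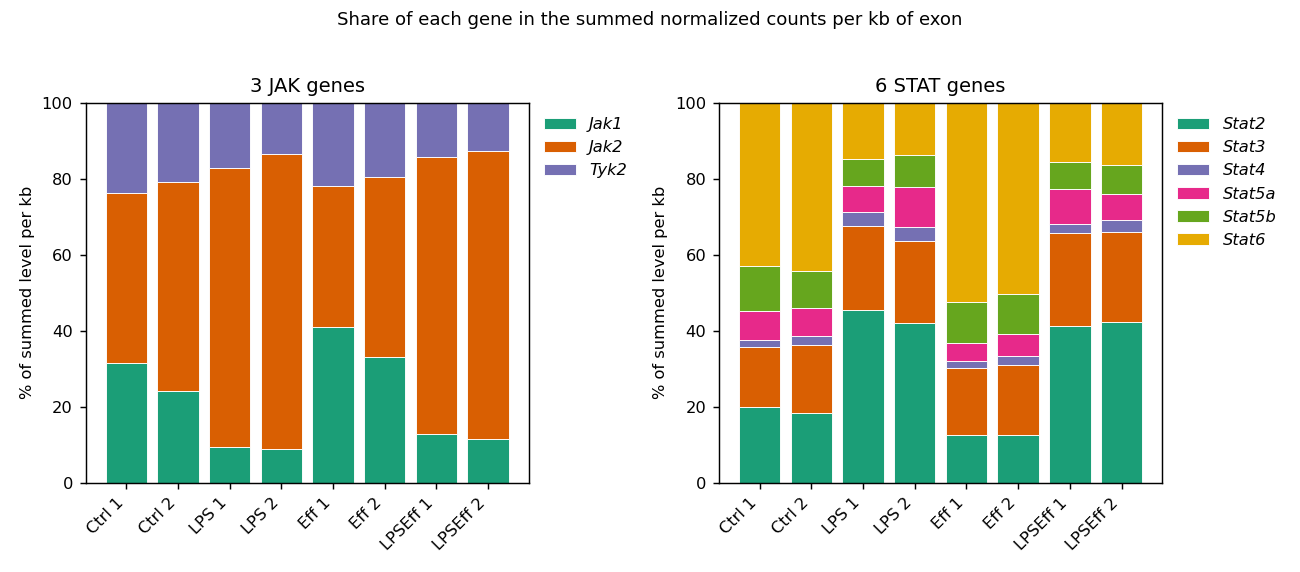
Share (%) of each gene in the summed normalized counts per kilobase of exon of the 6 STAT genes and of the 3 JAK genes, one stacked bar per sample. Stat6 takes the largest STAT share in the 4 unstimulated samples (43.1% to 52.6%) and Stat2 in the 4 stimulated samples (41.2% to 45.4%), while Jak2 takes 72.9% to 77.7% of the JAK sum in the stimulated samples.

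Among the kinases, *Jak2* stood at 298 ± 93.2 normalized counts per kilobase of exon in Ctrl, *Jak1* at 162 ± 2.95 and *Tyk2* at 131 ± 11.2. In LPS the levels were 1628 ± 469 for *Jak2*, 323 ± 27.8 for *Tyk2* and 193 ± 39.1 for *Jak1*, and in LPSEff 1327 ± 74.1, 242 ± 14.1 and 215 ± 11.2 in the same order. *Tyk2* and *Jak1* thus changed places under LPS/IFNγ. By the length of the canonical transcript the gaps were smaller: *Jak2* stood at 344 and *Jak1* at 311 in Ctrl, *Jak1* (333) lay above *Jak2* (234) in Eff, and *Tyk2* (429) and *Jak1* (413) lay close in LPSEff. In Eff *Jak2* (203 ± 68.0) and *Jak1* (173 ± 3.33) overlapped, above *Tyk2* at 98.1 ± 8.81. *Jak2* in LPS lay at the 98.4th percentile of all tested genes by this measure. Its share of the JAK sum was 44.7% and 54.9% in Ctrl and 37.1% and 47.3% in Eff, against 73.4% and 77.7% (LPS) and 72.9% and 75.9% (LPSEff) after stimulation. By canonical length the *Jak2* share was 33.4% and 43.1% in Ctrl and 26.7% and 35.7% in Eff, against 63.6% and 68.6% (LPS) and 62.7% and 66.3% (LPSEff) with stimulation. On that scale *Jak1* held more than *Jak2* in Ctrl 1, at 39.3%, and in both Eff samples, at 49.0% and 41.5%.

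The neighbouring genes *Stat5a* and *Stat5b* encode closely related proteins. The ratio of *Stat5a* to *Stat5b* normalized counts was 0.763 and 0.910 in Ctrl and 0.522 and 0.666 in Eff. It was 1.15 and 1.45 with LPS/IFNγ in naïve and 1.54 and 1.06 in efferocytic Mϕ. The ratio was higher in every stimulated sample than in every unstimulated one. Per kilobase of exon it was 0.639 and 0.763 in Ctrl and 0.438 and 0.558 in Eff, so *Stat5b* had the higher level there. In stimulated samples it was 0.962 and 1.21 (LPS) and 1.29 and 0.885 (LPSEff), on both sides of 1. The order depended on the length used. By canonical length *Stat5a* was the higher in each stimulated sample. In Ctrl the means were then 92.7 for *Stat5a* and 87.0 for *Stat5b*, and in Eff 56.8 and 74.4. The shared exon words given above limit how exactly reads were divided between them.

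The other genes of the pathway were read from lists of receptors, ligands, inhibitors, partners and known targets. For comparison, 11.6% of all tested genes were called lower by LPS/IFNγ in naïve and 8.95% in efferocytic Mϕ, and shares called higher are given above. Of 29 tested receptor chains, 12 were called higher and 2 lower by LPS/IFNγ in naïve Mϕ and 15 were not called, with a median log2 fold change of 0.75 against −0.01 over all tested genes. In efferocytic Mϕ 14 were called higher, 1 lower and 14 not, with a median of 0.85. Called lower were *Il6ra* in naïve (log2 −2.64, adjusted p = 0.000751) and efferocytic Mϕ (log2 −2.38, adjusted p = 0.00134), and *Lifr* in naïve Mϕ (log2 −1.39, adjusted p = 0.0256). *Il12rb1*, a chain of the IL-12 and IL-23 receptors that bind TYK2, went from 36.7 ± 1.99 normalized counts in Ctrl to 356 ± 85.5 in LPS (log2 3.22, SE 0.46, adjusted p = 0.00193). *Il15ra*, which presents IL-15, went from 52.4 ± 1.31 to 454 ± 7.22 (log2 3.09, adjusted p = 0.000297), and *Il23r* rose by 3.16 (adjusted p = 0.0187). The receptor chains of the interferons themselves were picked for their role after their values were known. *Ifnar1* (log2 0.60, adjusted p = 0.0434) and *Ifnar2* (log2 0.86, adjusted p = 0.0199) rose in naïve Mϕ. Both also rose in efferocytic Mϕ (log2 0.70 and 0.88, adjusted p = 0.0274 and 0.0207). *Ifngr1* was at 503 ± 20.0 in Ctrl and 282 ± 80.7 in LPS, a difference of −0.86 that was not called (adjusted p = 0.0681) and was called with pairs (adjusted p = 0.00223). In efferocytic Mϕ its difference was −0.53 (adjusted p = 0.263, and 0.0334 with pairs). *Ifngr2*, the other chain of the IFNγ receptor, was at 1236 ± 102 in Ctrl and 1601 ± 42.0 in LPS, a difference of 0.38 (adjusted p = 0.157, and 0.0447 with pairs), and it rose by 0.65 in efferocytic Mϕ (adjusted p = 0.0306).

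Of 25 listed cytokine ligands, 14 passed the filter on low values and 11 were not tested. *Il7*, *Il10*, *Il12a*, *Il23a*, *Csf2* and *Csf3* averaged under 10 normalized counts in both Ctrl and Eff and passed through the stimulated groups. That fixes their direction, so the text gives no count or median of the LPS/IFNγ changes of this list. *Il6*, the ligand that acts through STAT3, averaged 13.5 ± 2.96 normalized counts in Ctrl against 9337 ± 1749 in LPS. It averaged 20.8 ± 4.57 in Eff against 6383 ± 457 in LPSEff, and both rises were called (adjusted p = 1.28e-06 and 2.42e-06). *Il12b*, a subunit of IL-12 and IL-23, rose from 51.2 ± 25.4 in Eff to 10145 ± 4322 in LPSEff (log2 7.62, adjusted p = 2.90e-05). No rise is named for *Csf3* or *Il12a*, whose direction the filter fixed. *Il12a* had no reads in Ctrl, and *Csf3* averaged 4.39 normalized counts there, near the worth of 3 reads.

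Of 20 inhibitors and phosphatases, 9 were called higher, 2 lower and 9 not in naïve Mϕ (median 0.45), and 7, 2 and 11 in efferocytic Mϕ (median 0.51). *Usp18*, which restrains the type I interferon receptor, averaged 379.5 ± 20.7 normalized counts in Ctrl and 6965 ± 759.8 in LPS (log2 4.19, SE 0.22, adjusted p = 3.11e-05). *Socs1*, an inhibitor of JAK kinases, rose from 241 ± 31.2 to 1843 ± 181 (log2 2.93, SE 0.30, adjusted p = 0.000421). *Socs3*, an inhibitor of signalling through the IL-6 receptor, rose by 2.08 (adjusted p = 0.00607). Of 8 partners and adaptors, 2 were called higher and 6 not in naïve Mϕ (median 0.41), and 3 and 5 in efferocytic Mϕ (median 0.42). *Irf9*, the DNA-binding partner of STAT2, rose from 331 ± 11.5 to 884.5 ± 87.6 in naïve Mϕ (log2 1.41, adjusted p = 0.0016) and from 226 ± 42.2 to 792 ± 9.37 in efferocytic Mϕ (log2 1.82, adjusted p = 0.000532).

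**Figure D4:**
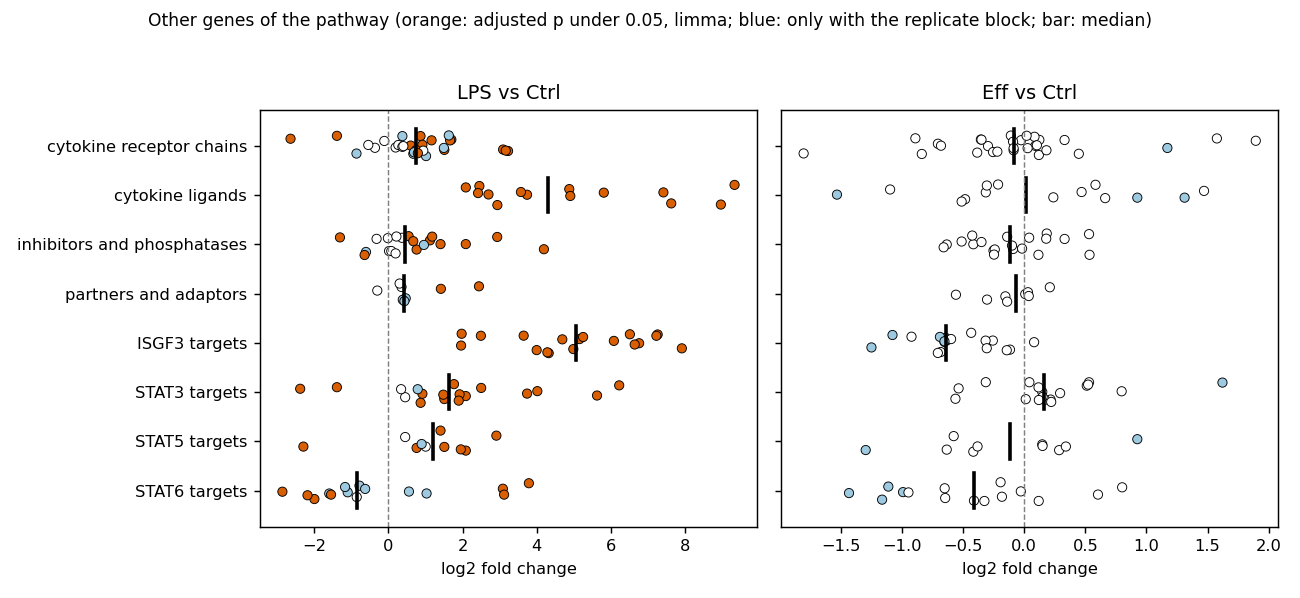
Log2 fold change of each tested gene of 8 pathway lists (points) and the median of each list (bars) in LPS vs Ctrl and in Eff vs Ctrl, on axes of different range, orange where called by limma, blue where called only with the replicate block and white otherwise. All 18 ISGF3 targets are orange and positive in LPS vs Ctrl (median 5.07). The ligands passed a filter that fixes the direction of some of them, among them Il10, which is also in the STAT3 list. The bar of the ligands in LPS vs Ctrl is therefore not read as a result. No gene is orange in Eff vs Ctrl, where 4 ISGF3 targets are blue and negative.

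All 18 known ISGF3 targets were called higher by LPS/IFNγ in naïve (median 5.07) and in efferocytic Mϕ (median 5.56). *Rsad2*, an antiviral enzyme, rose by 7.91 on the log2 scale (SE 0.32, adjusted p = 9.50e-06) in naïve and 8.89 (SE 0.32, adjusted p = 4.29e-06) in efferocytic Mϕ. Of 18 STAT3 targets, 13 were called higher, 2 lower and 3 not in naïve Mϕ (median 1.64), led by the acute phase genes *Saa3* (6.22) and *Lcn2* (5.62), and 12, 2 and 4 in efferocytic Mϕ (median 1.60). These counts and medians include *Il10*, a ligand that passed the filter through the stimulated groups, which fixes its direction. Of 10 STAT5 targets, 6 were called higher, 1 lower and 3 not in naïve Mϕ (median 1.20) and 4, 1 and 5 in efferocytic Mϕ (median 0.95). The cyclin genes *Ccnd2* (2.91) and *Ccnd1* (−2.29) of that list moved in opposite directions. Of 15 tested STAT6 targets, 3 were called higher, 4 lower and 8 not in both comparisons, with medians of −0.86 and −0.36. The 3 with the largest changes, the chemokine genes *Ccl22* (3.79) and *Ccl17* (3.08) and the transglutaminase gene *Tgm2* (3.12), rose in naïve Mϕ, and the lipid-sensing receptor gene *Pparg* fell by 2.86 on the log2 scale and was chosen after its value was seen. Many of these targets also answer other signals, so the lists do not measure STAT activity.

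Between efferocytic and naïve Mϕ no gene of these lists was called, with or without LPS/IFNγ, by limma without pairs. The median log2 differences without stimulation were −0.64 for the ISGF3 targets, −0.41 for the STAT6 targets, −0.12 for the STAT5 targets and 0.16 for the STAT3 targets. With pairs, 4 of 18 ISGF3 targets were called lower in Eff than in Ctrl (*Mx1*, *Ifit1*, *Rsad2* and *Ifih1*) and none higher, and 4 of 15 STAT6 targets were called lower (*Ccl17*, *Ccl22*, *Clec10a* and *Irf4*) and none higher, in the fit that called 0.975% of all tested genes lower. The summed level of 8 dendritic cell markers was 4547 and 9698 normalized counts in Ctrl and 2685 and 6087 in Eff, and its part in these values was not tested. Of the STAT5 targets, *Osm* was called higher (adjusted p = 0.0263) and *Il2ra* lower (adjusted p = 0.00605) with pairs. *Mx1*, an interferon-induced gene, was at 230.1 ± 4.98 normalized counts in Ctrl and 96.2 ± 5.27 in Eff, a log2 difference of −1.25 (adjusted p = 0.0553 without and 0.00209 with pairs). *Il1rn*, which encodes the IL-1 receptor antagonist and is listed with the STAT3 targets, was at 726 ± 4.0 in Ctrl and 2272 ± 555 in Eff, a difference of 1.62 (adjusted p = 0.142 without and 0.0012 with pairs). Between LPSEff and LPS the fit with pairs called 6.97% of all tested genes. It called 1 ISGF3 target lower (*Mx1*), 2 STAT3 targets higher (*Il10* and *Il1rn*), 2 STAT5 targets lower (*Socs2* and *Il2ra*) and, of the STAT6 targets, 2 higher (*Arg1* and *Tgm2*) and 3 lower (*Ccl17*, *Ccl22* and *Irf4*). *Il10* averaged 27.7 ± 24.8 normalized counts in LPS and 146 ± 102 in LPSEff, and passed the filter only through these groups. Of 29 receptor chains the fit with pairs called 1 higher between Eff and Ctrl, and 2 higher and 1 lower between LPSEff and LPS. Of 14 ligands it called 2 higher and 1 lower, then 1 higher and 2 lower. Of 20 inhibitors it called none, then 1 higher and 3 lower, and no partner in either comparison. Between Eff and Ctrl it called 2.67% of all tested genes. *Il12b* was called lower in both (log2 −1.53 and −1.32, adjusted p = 0.000531 and 0.000667). The named genes of the fits with pairs were chosen after their values were seen.

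For each of the 9 genes, the 3 tested genes with the most similar profile over the 8 samples were found from the root mean square difference of log2 values after each gene was centred on its mean. *Stat2* was nearest to *Sp100* (0.130), *Slc2a6* (0.153) and *Ube2l6* (0.165), and *Stat3* to *Wars1* (0.0966), *Ptprj* (0.105) and *Trim25* (0.108). *Jak2* was nearest to *Birc3* (0.150), *Trim30b* (0.163) and *Trim12c* (0.168), and *Tyk2* to *H2-K1* (0.0876), *Rab9* (0.0895) and *Pstpip2* (0.0914). *Stat4* was nearest to *Cers6* (0.131), *Filip1l* (0.142) and *Carmil1* (0.147). *Stat5a* had the least close neighbours, *Ndrg1* (0.185), *Apobec3* (0.186) and *Cacng8* (0.209), whereas *Stat5b* lay near *Max* (0.112), *Tab2* (0.114) and *Slc49a4* (0.115). The flat profiles of *Stat6* and *Jak1* had the closest matches, *Itprid2* (0.0400), *Nagk* (0.0566) and *Pisd* (0.0612) for *Stat6* and *Atox1* (0.0722), *Zfp236* (0.0743) and *Gm21970* (0.0765) for *Jak1*. *H2-K1*, *Trim30b* and *Trim12c* belong to families with close copies, so their counts are uncertain. The points of these profiles share the same 8 libraries.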

How the data were processed

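RNA of 8 samples (4 groups of 2) was depleted of ribosomal RNA and sequenced as single-end reads of 50 cycles. The authors trimmed reads with cutadapt, removed ribosomal reads with Bowtie2, aligned to mm39 with STAR, counted per gene with HTSeq at its default settings and normalized with DESeq2 (versions and annotation release not given in the sources used here). The deposited values are normalized counts, a signal in which each read count was divided by a size factor of its sample (0.525 to 1.73). Whole reads were recovered for 100% of values (tolerance 0.01 reads).

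Of 55359 gene IDs, 54749 (98.9%) matched GENCODE names. The 16309 genes that averaged 10 or more were tested on log2(normalized count + 1) with limma 3.58.1 (R 4.3.3), with trend, empirical Bayes and 1 mean per group, two-sided, with Benjamini-Hochberg adjustment over all tested genes and calls at an adjusted p under 0.05. A fold change on this scale understates changes of low genes. All intervals are at 95%, and read floors cover counting error only. edgeR 4.0.16 and DESeq2 1.42.0 were run on the recovered reads as alternatives. The limma, edgeR and DESeq2 fits were tested on simulated counts for 1 comparison (LPS against Ctrl), and the other steps were not.

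Differences between replicate 2 and replicate 1 correlated across genes between every pair of groups (Pearson r 0.404 to 0.595, 6 pairs of groups), so same-numbered samples were treated as pairs in an alternative fit with the replicate number as a block, called the fit with pairs. The pairing comes from the data, since the labels do not say what a number stands for.

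The 9 genes and all lists were chosen with earlier results of these data known. Named beside them are the 3 nearest profiles per gene and up to 3 called genes of largest change per pathway list and comparison. Promoter sequences were read from GRCm39, the same assembly as mm39, with GENCODE annotation, and 1 promoter match is not reported here.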

Additional observations from a re-analysis of the deposited data

How the results depend on the processing

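The shallowest sample held 3481288 reads in genes, and no value of the 9 genes rested on fewer than 53 reads. Of 936 values recomputed under 21 alternatives, 876 kept their direction and their side of the threshold, 10 lost and 13 gained a call and 37 changed sign, none of them called. The number of the 9 genes called was 7 in both LPS/IFNγ comparisons and ranged from 5 to 7 and from 6 to 7 when 1 sample was left out. Between Eff and Ctrl it was 0 and became 1 (*Stat2*) with the replicate block, with DESeq2, and with edgeR, DESeq2 or equal totals each combined with the replicate block. The combined settings called 429, 515 and 411 of all tested genes. Between LPSEff and LPS it was 0 and became 1 (*Stat4*) with edgeR or equal totals combined with the replicate block (adjusted p = 0.0338 and 0.0459), settings chosen after seeing the data. These settings called 1233 and 1125 of all tested genes. The replicate block alone changed no other call of the 9 genes. Sign changes were seen for *Jak1* in LPS against Ctrl (−0.16 with equal totals with or without the block, −0.29 with quantile normalization) and in LPSEff against Eff (−0.14 and −0.23), and for *Stat6* in LPSEff against LPS (−0.0260 with equal totals, −0.00296 with DESeq2 and −0.00534 with DESeq2 and the block). For the difference between both LPS/IFNγ effects they were seen for *Tyk2* (−0.0466 with equal totals, −0.00588 with DESeq2 and −0.00443 with DESeq2 and the block) and *Stat5b* (0.0197 with quantile normalization). Leaving out 1 sample gave, for LPSEff against LPS, −0.0550 to 0.0768 for *Stat6*, −0.0382 to 0.38 for *Jak1*, −0.11 to 0.10 for *Stat3*, −0.66 to 0.19 for *Stat5a*, −0.48 to 0.0363 for *Stat5b* and −0.56 to 0.0333 for *Jak2*. For the difference between both effects it gave −0.26 to 0.25 for *Stat5b*, −0.0542 to 0.64 for *Jak2*, −0.0892 to 0.0941 for *Tyk2*, −0.14 to 0.28 for *Jak1* and −0.0846 to 0.0473 for *Stat6*. Equal totals ended the call of *Stat5b* (0.56 and 0.51, adjusted p = 0.0560 and 0.0787), and fitting only the groups compared did so in naïve Mϕ (adjusted p = 0.0505); that setting gives no difference between effects. Over all tested genes, the calls numbered 3910, 3213, 41, 126 and 0 (LPS against Ctrl, LPSEff against Eff, Eff against Ctrl, LPSEff against LPS, and the difference between effects), 6717, 6033, 436, 1137 and 0 with the replicate block, and 3965, 3518, 207, 368 and 0 with DESeq2. The causes were not tested.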

Other observations

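*Jak2* and *Stat4* were higher in replicate 2 than in replicate 1 in all 4 groups. The log2 differences were 0.65, 0.60, 0.69 and 0.11 for *Jak2* and 0.26, 0.23, 0.47 and 0.10 for *Stat4*, in the order Ctrl, LPS, Eff, LPSEff. By comparison, 29.1% of all tested genes were higher in replicate 2 in all 4 groups, and 14.7% were lower. The summed level of 8 dendritic cell markers was also higher in replicate 2 in each group, at 4547 and 9698 normalized counts in Ctrl and 2685 and 6087 in Eff. With LPS/IFNγ the sums were 10664 and 24112 in naïve and 8349 and 12944 in efferocytic Mϕ. The part of those cells in the values of *Jak2* and *Stat4* was not tested.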
